A study of Homo sapiens with 30 samples.

Results

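A set of 8 genes of pericellular proteolysis and clotting was followed in LX2 cells, an activated human hepatic stellate cell line. They were the plasminogen activators PLAU (urokinase) and PLAT (tissue plasminogen activator), the urokinase receptor PLAUR, the protease inhibitors SERPINE2, SERPINB2, TFPI and TFPI2, and tissue factor, F3. Each was the row whose Ensembl identifier maps to that symbol, and the 8 rows were part of a table of 61597 genes. All 8 members were among the 15137 genes with at least 1 CPM, the count scaled to a library total of 1000000 reads, in at least 5 of the 30 libraries, the genes that were tested. SERPINB2 met that level in 9 libraries, 7 of them from cells given docosahexaenoic acid (DHA), so it was tested because of the group in which it was high. Without it, the members called after DHA number 3 of 7 in place of 4 of 8.

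Urokinase and tissue plasminogen activator cut plasminogen to plasmin, which degrades fibrin and matrix proteins and activates matrix metalloproteinases. PLAUR holds urokinase at the cell surface, and serpins such as SERPINB2 block the activators. F3 starts clotting by binding factor VII, TFPI blocks that complex, and TFPI2, despite its name, is a matrix-bound inhibitor of plasmin and trypsin-like proteases. Stellate cells are the main matrix-producing cells of the injured liver, where these proteases and inhibitors take part in matrix turnover.

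The study gave LX2 cells a fatty acid or its vehicle and then betacellulin (BTC), a ligand of the epidermal growth factor receptor family, or the vehicle of BTC. Veh+Veh cells received neither agent, and Veh+BTC cells received BTC alone. OLA+Veh and OLA+BTC cells were pretreated with oleic acid, a monounsaturated fatty acid, and DHA+Veh and DHA+BTC cells with DHA, a longer, polyunsaturated omega-3 fatty acid. Both fatty acids were used at 50 µM for 2 cycles of 48 h, and BTC at 20 ng/ml for 72 h. Albumin at 20 µM and serum at 1% are listed for all groups, those given vehicle included. Every group had 5 libraries, 1 from each of 5 experiments, all from the same cell line. The labels name the experiments but not how the cultures of an experiment were related, so the libraries with and without BTC enter as independent, and a p-value here sets a difference against the spread of these libraries, which may be technical.

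Libraries held between 1245182 and 9490142 reads, with a median of 3683035. The DHA libraries were the shallowest on the median, at 3268410.5 reads against 3921124.5 after vehicle and 4203956.5 after oleic acid. Lowest in depth were 3 of the DHA libraries, numbered here by experiment: DHA+BTC 4, DHA+BTC 5 and DHA+Veh 5. Of 10 stellate or myofibroblast markers 8 were tested, while DES and LRAT were at most 0.446 and 0.598 CPM. The summed level of the 10 was 698 to 4160 CPM over the libraries, with a median of 3146 after vehicle and 1782 after DHA. The summed level of 6 hepatocyte markers was at most 5.25 CPM, with TTR at 0 everywhere. The summed level of 5 leukocyte markers was 10.7 to 59.6 CPM with CD3E at 0, and that of 5 endothelial markers at most 47.0 CPM. Of 4 epithelial markers 3 were tested, with a median sum of 42.4 CPM after DHA against 24.1 after vehicle. Their sum ran from 10.5 to 158 CPM over the libraries, and CDH1 alone reached 149 CPM. The part of depth and of these marker levels in the DHA results was not tested, and fewer cells of a kind cannot be told apart from less RNA per cell.

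After DHA, 4 of the 8 genes were higher than after vehicle and none was lower, with the libraries with and without BTC averaged. TFPI2 rose 9.32-fold, SERPINB2 3.69-fold, PLAUR 2.59-fold and SERPINE2 1.91-fold. Both plasminogen activators, TFPI and F3 did not pass the test. The test was limma on log2(CPM + 1) with the experiment as a term and Benjamini-Hochberg adjustment over all 15137 genes, and a call is an adjusted p under 0.05. Over all genes it called 2.33% higher and 8.38% lower, or 10.7% in either direction. The median log2 difference of the 8 members was 0.85, against -0.134 over all genes tested. Without SERPINB2, which was tested because of its DHA libraries, the median is the 0.78 of PLAU, a gene that was not called. A fold here is on the scale of CPM + 1, which understates the change of a gene near 0. On recovered reads the log2 difference of SERPINB2 was 4.17 in edgeR (adjusted p = 0.000858) and 4.51 in DESeq2 (adjusted p = 0.000627), above those of TFPI2, 3.61 and 3.63.

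**Figure D1:**
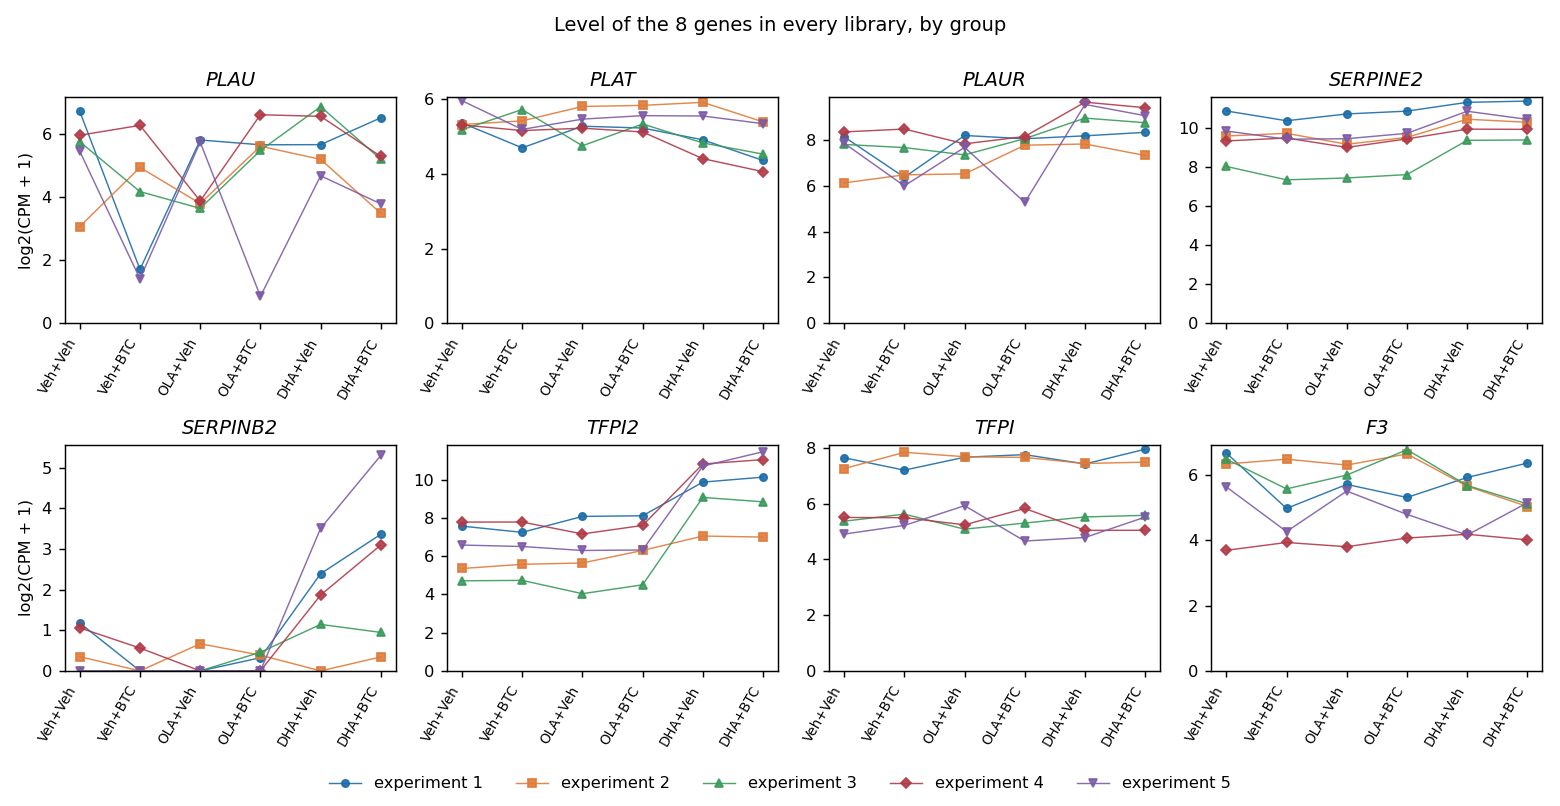
Level of each gene as log2(CPM + 1) in all 30 libraries, with 1 panel per gene, groups on the horizontal axis and 1 line per experiment. TFPI2 sits at 128 to 2845 CPM in the DHA libraries and 15.5 to 278 CPM in the others, SERPINB2 is near 0 outside DHA, TFPI splits by experiment, and PLAU drops below 3 CPM in 3 BTC libraries.

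**Figure D2:**
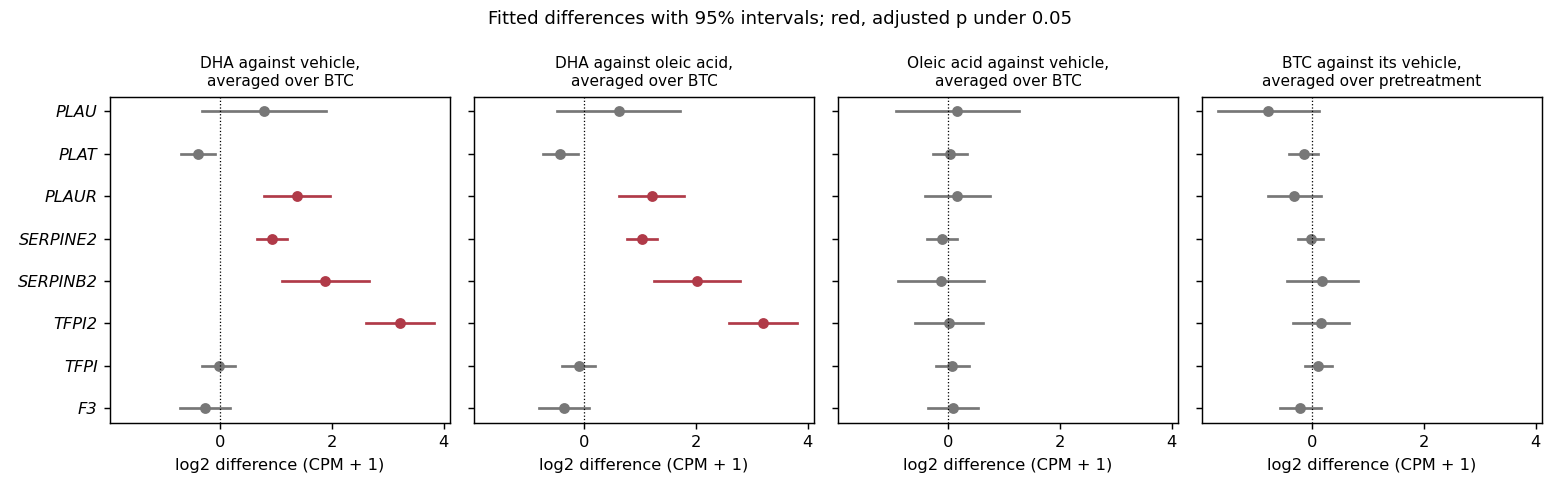
Fitted log2 differences in CPM + 1 (points) with 95% intervals (lines) for the 8 genes in 4 comparisons, red where the adjusted p was under 0.05. The same 4 genes are red in the comparisons of DHA with vehicle and with oleic acid, and none is red for oleic acid against vehicle or for BTC.

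The promoters of the 4 genes that rose are shown because they rose together, SERPINE2 with both of its start sites, and F3 stands beside them as a member that was not called. RefSeq (GRCh38.p14) start sites were found for 7 of the 8 members, PLAT being the exception, giving 9 windows of 250 bases upstream of the start. Capitals mark the AP-1 motif TGANTCA, read on both strands, and in TFPI2 also a match to the NF-kB motif.
TFPI2 promoter, chr7:93890754-93891003, minus strand: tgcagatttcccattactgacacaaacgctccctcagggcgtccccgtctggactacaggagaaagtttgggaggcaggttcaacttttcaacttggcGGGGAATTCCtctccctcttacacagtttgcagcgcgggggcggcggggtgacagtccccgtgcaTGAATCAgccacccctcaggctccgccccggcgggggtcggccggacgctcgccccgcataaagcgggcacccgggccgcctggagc
PLAUR promoter, chr19:43670170-43670419, minus strand: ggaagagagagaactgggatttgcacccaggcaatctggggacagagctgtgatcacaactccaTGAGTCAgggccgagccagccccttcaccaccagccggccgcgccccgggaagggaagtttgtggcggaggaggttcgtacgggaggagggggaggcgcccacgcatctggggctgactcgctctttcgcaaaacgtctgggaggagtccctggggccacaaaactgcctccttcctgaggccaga
SERPINB2 promoter, chr18:63887455-63887704, plus strand: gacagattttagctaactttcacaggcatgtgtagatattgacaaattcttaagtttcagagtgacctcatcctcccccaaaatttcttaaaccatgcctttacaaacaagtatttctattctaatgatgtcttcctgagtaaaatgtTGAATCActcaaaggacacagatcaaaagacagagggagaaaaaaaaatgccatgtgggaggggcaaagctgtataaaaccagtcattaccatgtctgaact
SERPINE2 promoter at start site 1, chr2:224031479-224031728, minus strand: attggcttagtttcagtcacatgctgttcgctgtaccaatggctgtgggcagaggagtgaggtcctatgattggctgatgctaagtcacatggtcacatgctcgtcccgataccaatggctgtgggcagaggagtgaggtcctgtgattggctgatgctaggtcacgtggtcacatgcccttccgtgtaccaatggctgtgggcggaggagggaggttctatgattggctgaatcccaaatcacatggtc
SERPINE2 promoter at start site 2, chr2:224038641-224038890, minus strand: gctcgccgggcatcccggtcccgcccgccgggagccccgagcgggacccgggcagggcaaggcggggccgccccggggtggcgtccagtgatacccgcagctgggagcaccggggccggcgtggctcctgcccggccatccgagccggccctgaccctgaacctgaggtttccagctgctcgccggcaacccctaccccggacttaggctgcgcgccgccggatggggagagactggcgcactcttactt
F3 promoter, chr1:94541760-94542009, minus strand: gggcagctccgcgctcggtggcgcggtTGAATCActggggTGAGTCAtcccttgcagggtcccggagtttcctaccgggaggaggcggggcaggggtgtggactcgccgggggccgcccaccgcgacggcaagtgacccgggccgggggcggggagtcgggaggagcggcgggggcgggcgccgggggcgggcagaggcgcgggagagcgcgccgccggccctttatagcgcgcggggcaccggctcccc
The AP-1 letters lay 87 to 81 bases before the start of TFPI2, 186 to 180 bases before that of PLAUR and 102 to 96 bases before that of SERPINB2. F3 held them at 223 to 217 and again at 210 to 204 bases. They were in 4 of the 9 windows, and 6.57% of 35116 RefSeq windows of the same length held them. The NF-kB match was 152 to 143 bases before the start of TFPI2, in 1 of the 9 windows, against 5.21% of all windows. The HIF motif ACGTG, found in 18.5% of all windows, was in 1 SERPINE2 window, and the TEAD motif GGAATG, found in 11.9%, was in none. A match describes letters in a window and not a site that is used. Of the called genes SERPINE2 held no AP-1 match. Of the genes not called F3 held 2, and PLAU and TFPI, whose windows are not shown, held none. Whether the matches bear on the levels was not tested.

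Among the plasminogen activators, PLAU encodes urokinase, the activator that works at the cell surface and in matrix. Its level in the Veh+Veh libraries of experiments 1 to 5 was 105, 7.42, 53.3, 61.6 and 43.1 CPM. In Veh+BTC it was 2.28, 29.9, 17.1, 76.9 and 1.66 CPM. The DHA+Veh libraries held 50.0, 35.9, 117, 94.0 and 24.7 CPM, and the DHA+BTC libraries 91.0, 10.2, 35.9, 38.3 and 12.8 CPM. The groups overlapped throughout, and the lowest library was from experiment 2 in Veh+Veh and DHA+BTC but from experiment 5 in Veh+BTC and DHA+Veh. DHA exceeded vehicle in 6 of 10 pairs, with a log2 difference of 0.78 and a 95% interval of -0.33 to 1.89 (limma, adjusted p = 0.396), so a rise of up to 3.70-fold lies within the interval.

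After oleic acid PLAU was 55.5, 13.0, 11.6, 13.8 and 52.9 CPM without BTC and 49.8, 48.2, 43.8, 97.4 and 0.811 CPM with it. Its lowest values of all were thus in Veh+BTC 1, Veh+BTC 5 and OLA+BTC 5, which held 8, 8 and 4 PLAU reads although their depths were 3508260, 4818854 and 4934194 reads. These libraries were not short of reads, and each was low beside the library of the same experiment without BTC. They were picked after their PLAU values were seen.

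PLAT encodes tissue plasminogen activator, the fibrin-bound activator. It was 39.9, 38.7, 35.0, 38.4 and 60.7 CPM in Veh+Veh and 24.8, 41.5, 51.4, 34.5 and 35.3 CPM in Veh+BTC. In DHA+Veh it was 28.9, 58.9, 27.2, 20.1 and 45.5 CPM, and in DHA+BTC 19.4, 40.7, 22.0, 15.6 and 39.4 CPM. The lowest 3 values of the 30 libraries were in DHA cells of experiments 1 and 4, but experiment 2 had a DHA library at 58.9 CPM and the groups overlapped. The log2 difference of DHA from vehicle was -0.40 (-0.71 to -0.09), lower in 8 of 10 pairs, and did not pass (limma, adjusted p = 0.0865). Without experiment 2, without Veh+Veh 2, or without the 3 libraries of lowest PLAU, the adjusted p fell under the threshold, to between 0.0274 and 0.0405. In the other 43 of 46 alternatives the difference did not pass. It was -0.28 with median-of-ratios scaling (limma, adjusted p = 0.243), -0.3 in edgeR (adjusted p = 0.256) and -0.3 in DESeq2 (adjusted p = 0.224).

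PLAUR encodes the glycolipid-anchored urokinase receptor. Its level in Veh+Veh was 278, 68.4, 221, 323 and 229 CPM, and in Veh+BTC 81.2, 87.6, 201, 352 and 62.5 CPM. After DHA it was 286, 224, 490, 793 and 741 CPM without BTC and 319, 158, 426, 671 and 527 CPM with BTC. Each DHA library was above the vehicle library of its own experiment in 10 of 10 pairs, although in experiment 1 without BTC by only 0.04 on the log2 scale. Across experiments the groups overlapped, since 323 CPM in Veh+Veh 4 exceeded the DHA+Veh libraries of experiments 1 and 2. The log2 difference was 1.37 ± 0.28 (SE, 0.79 to 1.96; limma, adjusted p = 0.00178). Without the 3 libraries of lowest depth, all DHA libraries, it was 1.00 and no longer passed (limma, adjusted p = 0.0623). Without the 3 libraries of lowest PLAU, in which PLAUR was 81.2, 62.5 and 37.5 CPM, it was 1.03 (limma, adjusted p = 0.00031). PLAU, by which they were picked, correlated with PLAUR at 0.72 within experiments, so the last value follows in part from that choice.

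Of the inhibitors, SERPINE2 (protease nexin) blocks thrombin, urokinase and plasmin, and is bound to matrix and cell surfaces. In experiments 1 to 5 it was 1860, 765, 260, 642 and 914 CPM in Veh+Veh, and 1314, 841, 161, 713 and 682 CPM in Veh+BTC. After DHA it was 2526, 1388, 656, 976 and 1839 CPM without BTC and 2638, 1243, 665, 968 and 1379 CPM with it. After oleic acid it ran from 172 to 1673 CPM without BTC and from 194 to 1849 CPM with it, with experiment 1 highest and experiment 3 lowest. All 10 DHA libraries lay above their vehicle partners, while levels overlapped across experiments. The log2 difference of 0.93 ± 0.13 (SE, 0.66 to 1.20) had an adjusted p of 2.81e-05 in limma. The rise was largest in experiment 3, where the level was lowest, at 1.33 without BTC and 2.04 with it. Without the experiment term the same difference did not pass (limma, adjusted p = 0.408).

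SERPINB2 encodes the second plasminogen activator inhibitor, much of which stays inside the cell. It was at or near 0 outside DHA cells: 20 reads in all over the 10 vehicle libraries and 6 over the 10 oleic acid libraries, with 6 of 10 libraries at 0 in each. A library at 0 allows a level of 3 reads, or 0.855 CPM in Veh+BTC 1, for counting error alone. After DHA it had 153 reads over 10 libraries. The DHA+Veh libraries stood at 4.25, 0, 1.21, 2.65 and 10.4 CPM, and the DHA+BTC libraries at 9.30, 0.270, 0.928, 7.58 and 38.5 CPM. The 38.5 CPM was 48 reads in DHA+BTC 5, the shallowest library. Experiment 2 had 0 and 1 reads after DHA, within the 0 to 2 reads of its other libraries. The log2 difference from vehicle was 1.88 ± 0.38 (SE, 1.11 to 2.66; limma, adjusted p = 0.00132), higher in 9 of 10 pairs. Without experiment 5 it was 1.25 (limma, adjusted p = 0.0233). Without the 3 libraries of lowest depth, in which SERPINB2 was 38.5, 10.4 and 7.58 CPM, it was 1.1 (limma, adjusted p = 0.0401).

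TFPI2 had the largest difference of the 8 members after DHA in limma on log2(CPM + 1), and the next after SERPINB2 in edgeR and DESeq2. In Veh+Veh it was 190, 40.1, 25.3, 221 and 95.3 CPM in experiments 1 to 5, and in Veh+BTC 152, 46.8, 25.7, 221 and 90.3 CPM. After oleic acid it was 271, 49.2, 15.5, 143 and 78.1 CPM without BTC and 278, 78.2, 21.7, 195 and 79.4 CPM with BTC. In these 4 groups experiments 1 and 4 were the highest, followed by 5, 2 and 3 in that order.

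After DHA, TFPI2 stood at 943, 132, 541, 1822 and 1689 CPM without BTC, and at 1131, 128, 461, 2137 and 2845 CPM with it. Every DHA library was above every vehicle or oleic acid library of its experiment, and outside experiment 2 also above the highest level without DHA, 278 CPM. The log2 difference from vehicle was 3.22 ± 0.30 (SE, 2.61 to 3.83; limma, adjusted p = 5.34e-08), higher in 10 of 10 pairs, and the fourth largest positive difference of all genes tested. The size of the rise varied between experiments. Averaged over BTC it was 1.56 in experiment 2, 2.60 in experiment 1, 3.15 in experiment 4, 4.24 in experiment 3 and 4.55 in experiment 5.

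**Figure D3:**
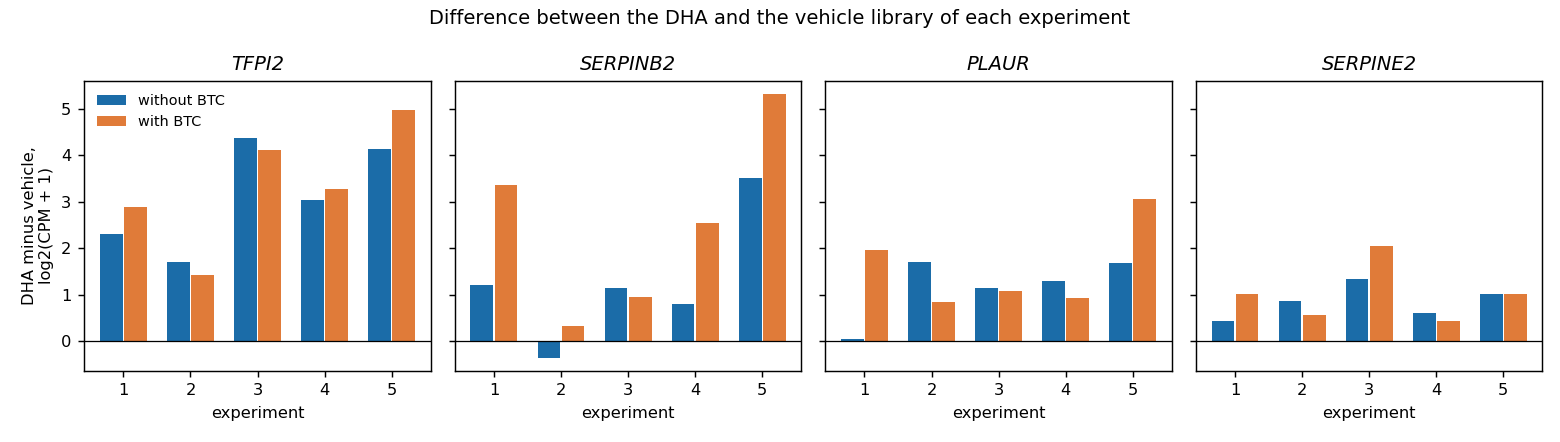
Difference in log2(CPM + 1) between the DHA and the vehicle library of each experiment (horizontal axis), without BTC (blue) and with BTC (orange), for the 4 genes called. TFPI2 bars run from 1.43 to 4.96, and the only bar below 0 is that of SERPINB2 in experiment 2 without BTC, at -0.35.

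TFPI, the Kunitz-type inhibitor of the tissue factor complex, showed no such pattern. Over all groups it was 147 to 248 CPM in experiments 1 and 2 and 24.3 to 60 CPM in experiments 3, 4 and 5, with no overlap between them. Of the variance of its log2 level, 93.9% was between experiments and 0.8% between groups. In Veh+Veh it was 200, 153, 40.5, 44.5 and 29.1 CPM, and in DHA+Veh 171, 174, 45.1, 32.0 and 26.6 CPM. The log2 difference of DHA from vehicle was -0.03 (-0.33 to 0.27; limma, adjusted p = 0.936), an interval that leaves room for changes of up to 1.21-fold upward. TFPI and TFPI2 deviated from their experiment means with a correlation of 0.00 over the 30 libraries.

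F3, which starts clotting, also varied mainly with the experiment, which accounted for 71.3% of its variance against 7.4% for the groups. It was 11.9 to 17.2 CPM in all 6 libraries of experiment 4 and 30.5 to 109 CPM in all libraries of experiments 1, 2 and 3. In Veh+Veh it was 101, 79.9, 88.7, 11.9 and 48.8 CPM, and in DHA+Veh 59.7, 49.5, 50.3, 17.2 and 16.9 CPM. DHA was lower in 4 of 5 experiments without BTC and in 2 of 5 with it. The averaged log2 difference was -0.28 (-0.72 to 0.17; limma, adjusted p = 0.462). Experiments accounted for 72.7% of the variance of SERPINE2, 41.4% for PLAT, 33.3% for TFPI2, 27.0% for PLAUR, 23.6% for PLAU and 12.0% for SERPINB2. Groups accounted for 56.4% in TFPI2 and 52.4% in SERPINB2, the largest shares of the 8.

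DHA was also set against oleic acid at the same 50 µM and the same times. This comparison and that with vehicle share the DHA libraries. The same 4 members were higher after DHA than after oleic acid and none was lower, against 2.4% of all genes called higher and 8.96% lower. SERPINB2, tested because of its DHA libraries, is among the 4. The log2 difference was 3.20 (2.59 to 3.81) for TFPI2, 2.01 (1.24 to 2.79) for SERPINB2, 1.21 (0.63 to 1.79) for PLAUR and 1.04 (0.77 to 1.31) for SERPINE2. Their limma adjusted p-values were 6.03e-08, 0.000746, 0.0057 and 5.67e-06. PLAUR was higher in 8 of 10 pairs and lost the call without experiment 4 (adjusted p = 0.0599) or without the 3 libraries of lowest depth (adjusted p = 0.132). The other intervals took in 0, at -0.49 to 1.72 for PLAU, -0.40 to 0.20 for TFPI and -0.81 to 0.08 for F3. The exception was PLAT, at -0.74 to -0.12, whose limma adjusted p was 0.0637. PLAT passed in 6 of 46 alternatives, at 0.0408 to 0.0483. These were without Veh+BTC 3, OLA+Veh 3, DHA+Veh 2, DHA+BTC 2 or the 3 libraries of lowest PLAU, and with only the groups compared. In the other 40 PLAT did not pass, and over all 46 its difference ran from -0.52 to -0.3.

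Oleic acid against vehicle gave no member called and none of the 15137 genes, 0.0%, in limma, edgeR or DESeq2. At an unadjusted p under 0.05 limma had 302 genes and none of the members. The difference for TFPI2 was 0.02, with an interval of -0.59 to 0.63, so that a rise of up to 1.55-fold is within it. For SERPINE2 the difference was -0.11 (-0.38 to 0.16), for PLAUR 0.16 (-0.42 to 0.74) and for SERPINB2 -0.13 (-0.90 to 0.64). The widest interval was that of PLAU, -0.94 to 1.27, around 0.16.

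BTC averaged over the pretreatments gave no member called and none of all genes, 0.0%, again with limma, edgeR and DESeq2. At an unadjusted p under 0.05 there were 609 genes and none of the members. The largest member difference was PLAU at -0.79 (-1.69 to 0.12; limma, adjusted p = 0.994), lower in 9 of 15 pairs. TFPI2 differed by 0.16 (-0.34 to 0.66), PLAUR by -0.32 (-0.80 to 0.15) and SERPINE2 by -0.03 (-0.25 to 0.19). After vehicle alone, no gene passed in limma, with 1539 at an unadjusted p under 0.05, nor in edgeR, and DESeq2 called 1 gene. PLAU at -1.69 (unadjusted p = 0.0352) and F3 at -0.72 (unadjusted p = 0.0269) were the members among the 1539, with adjusted p of 0.479 and 0.469. In PLAU that value came from -5.01 in experiment 1, -1.58 in experiment 3 and -4.05 in experiment 5, with 1.87 and 0.31 in experiments 2 and 4.

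Within the arms, 2 members were called higher for DHA against vehicle without BTC, TFPI2 at 3.11 and SERPINE2 at 0.85, where 0.595% of all genes were called higher. With BTC 4 members were called higher, where 1.08% of all genes were called higher. They were TFPI2 at 3.33, SERPINB2 at 2.5, PLAUR at 1.57 and SERPINE2 at 1.01. PLAUR lost that call when genes of low level were kept in the test (limma, adjusted p = 0.0825). Over all genes, 342 of 27949 were then called in either direction, against 537 of 15137 in the main test. Without BTC PLAUR differed from vehicle by 1.17, higher in 5 of 5 pairs, and was not called (limma, adjusted p = 0.145), though it passed with only the groups compared (0.00308) and in DESeq2 (0.0185). Against oleic acid, TFPI2 and SERPINE2 were called higher without BTC (0.892% of all genes higher), and TFPI2, SERPINE2 and SERPINB2 with BTC (0.608% of all genes higher). SERPINB2 lost the last call when genes of low level were kept (limma, adjusted p = 0.0673). Over all genes, 95 of 27949 were then called in either direction, against 261 of 15137 in the main test. The counts of members with BTC include SERPINB2, which was tested because of its DHA libraries. The test of the difference between the arms, the interaction of DHA with BTC, called no gene in limma, edgeR or DESeq2, with 527 at an unadjusted p under 0.05 in limma and none of the members. It was 0.22 (-1.0 to 1.45) for TFPI2, 1.23 (-0.31 to 2.78) for SERPINB2, 0.40 (-0.76 to 1.56) for PLAUR and 0.16 (-0.38 to 0.71) for SERPINE2. The interaction of oleic acid with BTC also called none in limma, with 1279 at an unadjusted p under 0.05, none in edgeR and 1 gene in DESeq2. The arms are therefore not shown to differ for any member.

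The members fell into differing patterns once each experiment's mean was removed. Over the 30 libraries, which share their experiments and treatment groups, the correlation was 0.88 between SERPINE2 and TFPI2, 0.82 between SERPINB2 and TFPI2, 0.77 between PLAUR and TFPI2, and 0.72 between PLAU and PLAUR. PLAT ran opposite to TFPI2, at -0.51. The genes with the pattern closest to TFPI2, among tested genes of at least 5 CPM on average, were the chemokine CXCL1 (0.96), the collagenase MMP1 (0.96) and the metalloproteinase inhibitor TIMP1 (0.95). For SERPINB2 they were the cytokines IL24, IL11 and CSF3, each at 0.93. IL24 and CSF3, like SERPINB2, were near 0 in many libraries, with medians of 0.248 and 0.615 CPM and maxima of 59.4 and 434 CPM. They reached 5 CPM on average only through their high libraries. Closest to SERPINE2 were the adhesion molecule ICAM1 (0.90), OAF (0.89) and the secreted hormone STC1 (0.89). PLAUR was closest to the metallothionein MT1E (0.93) and the lipase inhibitor G0S2 (0.91). Likeness was weaker for F3, closest to the cyclin CCNH (0.85), for TFPI, closest to the mannosidase MAN2A1 (0.84), and for PLAT, closest to the signalosome subunit COPS9 (0.78). Without centring, OAF with SERPINE2 was at 0.14 and COPS9 with PLAT at 0.00, while the other pairs named were between 0.70 and 0.97. These values describe the libraries and carry no test.

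PLAU was most like PFDN2 (0.97), a prefoldin subunit, EMC7 (0.95), a subunit of a membrane protein insertion complex, and GNB2 (0.95), a G protein beta subunit. GNB2 was 22.8 CPM in Veh+BTC 1 against 627 in Veh+Veh 1, 34.4 in Veh+BTC 5 against 392 in Veh+Veh 5, and 38.5 in OLA+BTC 5 against 509 in OLA+Veh 5. These are the 3 libraries in which PLAU had 8 reads or fewer. Since GNB2 was picked for its likeness to PLAU over all 30 libraries, its low values there follow in part from that choice. The other 27 libraries entered that choice as well. Over them the correlation of PLAU with the same genes was 0.91 for PFDN2, 0.90 for EMC7 and 0.88 for GNB2. On the second principal component of the experiment-centred data, 17.7% of the variance, Veh+BTC 1 and Veh+BTC 5 had the lowest scores, -0.48 and -0.42. OLA+BTC 5, at -0.23, lay beside OLA+Veh 4 at -0.22 and Veh+BTC 3 at -0.19 and did not stand apart there. PLAU had the ninth largest weight of 15137 genes. What sets these libraries apart was not tested. Without them the BTC difference of PLAU, averaged over pretreatments, was 0.06 in place of -0.79, a value that follows in part from their having been picked by PLAU.

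**Figure D4:**
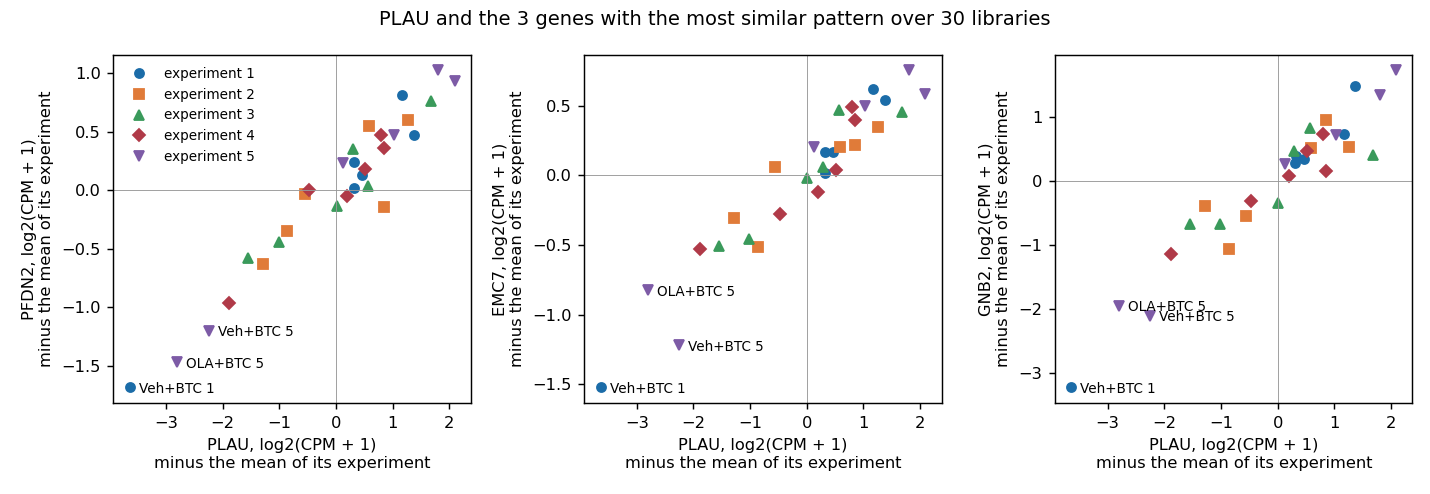
PLAU (horizontal axis) against PFDN2, EMC7 and GNB2 (vertical axes), each as log2(CPM + 1) minus the mean of its experiment, 1 point per library and 1 colour per experiment. The 3 named libraries lie lowest on the PLAU axis, and the remaining 27 keep correlations of 0.88 to 0.91. PFDN2, EMC7 and GNB2 were picked by their correlation with PLAU over all 30 libraries.

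Further genes of plasminogen activation and fibrinolysis came from a list of 25, of which 16 were tested. DHA against vehicle called 1 higher and 1 lower, beside 2.33% and 8.38% of all genes, and the list's median log2 difference was -0.03 against -0.13. SERPINB8, an intracellular serpin, rose from 9.84 ± 3.89 to 17.7 ± 3.39 CPM (SD, n = 10 each), by 0.85 in 10 of 10 pairs (limma, adjusted p = 0.00457). LRP8, a lipoprotein receptor, fell by 0.65 in 9 of 10 pairs (limma, adjusted p = 0.00967). Against oleic acid SERPINB8 was called, at 0.86, and LRP8 was not, at -0.46 (limma, adjusted p = 0.0651). The substrate gene PLG had 0 reads in every library, so no RNA for plasminogen itself was detected at this depth.

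Of 29 coagulation genes 11 were tested, and DHA against vehicle called none higher and 2 lower, beside 2.33% and 8.38% of all genes. The list's median log2 difference was 0.11, against -0.13 over all genes. GGCX, the vitamin K-dependent carboxylase, fell from 93.2 ± 13.2 to 63.0 ± 12.8 CPM (SD, n = 10 each), by 0.58 on the log2 scale (limma, adjusted p = 0.00283). F10 fell by 0.95 (limma, adjusted p = 0.0291), from 6.71 ± 2.5 to 3.52 ± 2.59 CPM. Against oleic acid, GGCX again fell, at -0.40 on the log2 scale, and F8 rose by 0.88, 1 gene in each direction beside 8.96% of all genes lower and 2.4% higher. F10 was not called there, at -0.73 (limma, adjusted p = 0.0932). F8 was low, at 1.84 ± 1.42 CPM after oleic acid and 4.21 ± 2.62 CPM after DHA (SD, n = 10 each). Against vehicle F8 was not called, at 0.51 (limma, adjusted p = 0.265). F7, the partner of F3, had 0 reads in every library, as had F5, F9, FGA and FGG. Neither list had a gene called for oleic acid against vehicle or for BTC, where limma had 1 and 0 genes of the first list and 0 and 2 of the second at an unadjusted p under 0.05.

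Genes that overlap the members in the GENCODE annotation were low. C10orf55, opposite PLAU, was at most 1.61 CPM, GNGT1, opposite TFPI2, at most 0.295 CPM and an antisense gene at TFPI2 at most 6.50 CPM. The sources used here do not give whether counting used strand, and reads from a member and its opposite partner cannot then be separated. SERPINB10, which overlaps SERPINB2, was at 0 in all libraries.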

How the data were processed

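RNA of LX2 cells was made into 30 QuantSeq 3′ libraries (6 groups, 5 experiments), per the labels' protocols. The authors deposited 1 table of CPM values. STAR 2.5.3a and HTSeq 0.6.0 are the tools named in the submitters' processing notes, which count here as labels. Build and strand setting are not given in the sources used here. Each deposited CPM column summed to 1000000, and whole reads were recovered from its steps for 100% of values (tolerance 0.01 read), giving the depths. Since QuantSeq reads lie near the 3′ end, CPM was not divided by length.

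Identifiers were matched to symbols (61444 of 61597 matched). Genes reaching 1 CPM in 5 or more libraries were tested with limma 3.58.1 (R 4.3.3) on log2(CPM + 1), fitting group and experiment over all 30 libraries, with Benjamini-Hochberg adjustment. edgeR 4.0.16 and DESeq2 1.42.0 on recovered reads, other pseudocounts, scaling and filters, and omitted libraries were alternatives. The fit was run on simulated counts with the same added spread for every gene and no deviation shared by the genes of a library. That run does not give error rates for the real libraries. Same-numbered libraries come from the same experiment per the labels, and their deviations from group means correlated at 0.119 to 0.743 in all 75 pairs (median 0.507). In 300 pairs of different experiment and group the correlations ran from -0.743 to 0.696 (median -0.169), so the ranges overlapped. The experiment was kept as a block.

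Members, lists and motifs were chosen with earlier results of these data known. Named genes were the 8 members, up to 6 called genes of the 2 companion lists per averaged comparison, and the 3 genes most like each member by the centred correlation; 1 gene eligible under this rule is not reported here. Promoters came from RefSeq (GRCh38.p14), overlaps from GENCODE 29. Counting floors of 3 reads cover counting error only.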

Additional observations from a re-analysis of the deposited data

Results flagged for a closer look

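In 48 sets of 5 libraries (8 genes in 6 groups), 5 held a library far from the other 4 by Dixon's criterion. Chance alone meets it in about 1 set in 20 where values follow a normal distribution, which was not tested for these CPM values. PLAUR in OLA+BTC was 37.5 CPM in experiment 5, where the nearest other library had 216 CPM. That is also the library with 0.811 CPM of PLAU. PLAT in Veh+Veh was 60.7 CPM in experiment 5, where the nearest other was 39.9 CPM. SERPINB2 in DHA+BTC was 38.5 CPM in experiment 5, against 9.30 CPM in the nearest other, from 48 reads in the library of lowest depth.

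The other 2 were SERPINB2 values of 2 reads each beside libraries at 0. They were 0.476 CPM in Veh+BTC 4 and 0.589 CPM in OLA+Veh 2, both under the level that a count of 0 allows at that depth. With the other 4 libraries of the group at 0, any count above 0 meets the criterion.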

How the results depend on the processing

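In 46 alternatives for DHA against vehicle and for DHA against oleic acid, averaged over BTC, no called difference changed sign, and TFPI2 and SERPINB2 passed in all 46. Without the replicate block, 2 members passed in each (TFPI2 and SERPINB2) and 0, 0, 0 and 0 in the 4 comparisons within a BTC arm, and PLAUR had an adjusted p of 0.0865 against vehicle and 0.179 against oleic acid. Averaging each experiment's libraries over BTC kept the 4 calls against vehicle, with adjusted p of 0.000262 (TFPI2), 0.00462 (SERPINE2), 0.00572 (PLAUR) and 0.0251 (SERPINB2).

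With only the groups compared, 1 member (TFPI2) passed against vehicle and 1 against oleic acid with BTC. Without the 3 libraries of lowest depth these were 2 and 1, and without the 3 of lowest PLAU, chosen after seeing the data, 2 against vehicle with BTC. DESeq2 called 4 against oleic acid without BTC. Leaving out 1 library or experiment gave 4 to 5 members against vehicle and 3 to 5 against oleic acid averaged over BTC, 1 to 3 and 2 to 4 against vehicle without and with BTC, and 2 to 4 and 1 to 3 against oleic acid without and with BTC. For the comparisons within a BTC arm, the share of all genes called under each of these settings is not given here. Whether a lost call was particular to the members was not tested, nor was its cause.

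Within a BTC arm TFPI2 kept its 4 calls whichever library or experiment was left out, as did SERPINE2 against vehicle with BTC and against oleic acid without BTC. Against vehicle without BTC, SERPINE2 (0.85) lost its call without experiment 2, 3, 4 or 5, Veh+Veh 5, DHA+Veh 3 or DHA+Veh 5 (0.71 to 0.91, adjusted p up to 0.109). With BTC, PLAUR lost it without experiment 1, 3 or 4, Veh+BTC 1 or 5, or DHA+BTC 4 or 5 (up to 0.117), and SERPINB2 without experiment 1, 4 or 5 (up to 0.0574). Against oleic acid with BTC, SERPINE2 lost it without experiment 3, 4 or 5, OLA+BTC 3 or 5, or DHA+BTC 3 (up to 0.131), and SERPINB2 without experiment 1, 3, 4 or 5, OLA+BTC 4 or 5, or DHA+BTC 4 or 5 (up to 0.198). Calls were also gained without BTC. PLAUR passed against vehicle without OLA+BTC 5 or the 3 libraries of lowest PLAU. Against oleic acid it passed with only the groups compared (0.0236), in edgeR (0.0319), DESeq2 (0.00638) and median-of-ratios scaling (0.0471), without the 3 libraries of lowest PLAU, and without experiment 1, OLA+BTC 2 or 5, DHA+Veh 1 or DHA+BTC 5. SERPINB2 passed against oleic acid in DESeq2 (0.0482) and without experiment 2, OLA+Veh 2, DHA+Veh 2 or DHA+BTC 5.

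Over all genes, DHA against vehicle was called for 1621 (352 higher, 1269 lower), 104 without the block, 577 (189 higher, 388 lower) without the lowest depths, 784 averaged over BTC, 1284 (530 higher, 754 lower) with median-of-ratios scaling, 950 (454 higher, 496 lower) in edgeR and 1385 (645 higher, 740 lower) in DESeq2. Against oleic acid it was 1719 (363 higher, 1356 lower), 68 without the block, 541 without the lowest depths, 771 averaged over BTC, 1266 (515 higher) with that scaling, 965 (484 higher) in edgeR and 1417 (669 higher) in DESeq2. Without experiments 3, 4 or 5 they were 978, 772 and 801 against vehicle and 1128, 603 and 669 against oleic acid. SERPINB2, at 0 in 13 libraries, is limited by depth.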
